A study of Homo sapiens with 12 samples.

Results

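The quinone, epoxide and conjugation enzymes are a set of 9 genes, NQO1, PIR, GSTP1, MGST1, MGST3, EPHX1, CBR1, CBR3 and UGDH, out of 55242 genes counted. They were taken by gene symbol, as classical detoxification enzymes under NRF2 control, with earlier results of these data known, and each had a row in every count file. Gene expression was measured by RNA-seq in Hs 578T, an established triple-negative breast cancer (TNBC) cell line of the mesenchymal stem-like subtype. The cells carried a lentiviral transgene for GFP, the control protein, or for full-length NRF2, and each was kept for 8 h in medium with added cystine (0.8 mM L-cystine, written Cyss) or in the same medium without Cyss. This gave 4 groups of 3 libraries, named GFP with Cyss, GFP without Cyss, NRF2 with Cyss and NRF2 without Cyss. All groups are transduced populations of this 1 cell line. The dose of 0.8 mM is the one recorded here for these libraries. The study's methods also name a lower cystine dose for control cells, without saying which experiments used it. Nothing in the labels says whether the 3 libraries of a group came from separate cultures, and the p-values measure only the spread between libraries, which may be technical.

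These enzymes handle reactive organic molecules. NQO1 reduces quinones straight to hydroquinones with NAD(P)H, which avoids the radical semiquinone, and PIR (pirin) is an iron-binding nuclear protein described as a redox sensor and as a quercetinase. GSTP1, MGST1 and MGST3 couple electrophiles or peroxides to glutathione, the first in the cytosol and the others in membranes. EPHX1 opens epoxides to diols, CBR1 and CBR3 reduce carbonyl groups and quinones with NADPH, and UGDH makes UDP-glucuronate, the sugar donor that glucuronidation uses. Several of these genes are textbook targets of NRF2 (gene NFE2L2), a transcription factor that binds antioxidant response elements (AREs) together with small MAF proteins and that KEAP1 marks for degradation.

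AREs were looked for in the reference genome because they are the letters that NRF2 is known to bind. The window ran from 1000 bases before to 200 bases after the start site of each gene's canonical transcript (GRCh37, GENCODE 44), on both strands. The ARE core TGACNNNGC was present in the windows of NQO1, PIR, GSTP1, MGST1, MGST3 and CBR1, and these letters were in 38.1% of the 19871 windows of protein-coding genes. The longer CNC-sMaf element, which overlaps the core and whose letters are the capitals of the NQO1 and GSTP1 lines with any base at the fourth place, was present in the windows of NQO1 and GSTP1 and in 0.966% of all windows. The matches nearest to the start sites follow, with the matched letters in capitals.
NQO1 (chr16:69760899-69760928, minus strand, 455 bases before the start): gcagtcacagTGACTCAGCAgaatctgagc
GSTP1 (chr11:67351207-67351236, plus strand, 66 bases before the start): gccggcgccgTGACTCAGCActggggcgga
PIR (chrX:15511412-15511440, plus strand, opposite to the gene, 27 bases after the start): agcctcaccgTGACTCAGCgcttcgcggc
CBR1 (chr21:37442153-37442181, minus strand, opposite to the gene, 159 bases before the start): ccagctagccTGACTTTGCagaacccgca
MGST3 (chr1:165600195-165600223, plus strand, 266 bases before the start): ccgggaggtaTGACCTGGCtgggacagtt
MGST1 (chr12:16500069-16500097, plus strand, 500 bases before the start): ggggacatcgTGACAAAGCaaattgtctg
The NQO1 and GSTP1 matches share all 10 letters of the longer element, and the PIR match shares its first 9. Neither pattern was found in these windows of EPHX1, CBR3 and UGDH, which says only that the letters are not there. In the RefSeq promoters (GRCh38.p14), which run from 250 bases before to 50 bases after the start that RefSeq gives, the core was present for EPHX1 too, beside PIR, GSTP1, MGST1 and CBR1. These are 5 of the 8 members in that table, and the core was in 13.3% of its 35116 promoters.

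The libraries held 27250993 to 44596870 reads on genes, with a median of 32857536. Among marker genes for the cell line and other cell types, 5 mesenchymal genes summed to 33100 to 36300 CPM per library, 8 epithelial genes to 28.3 to 50.7 CPM, and 4 leukocyte genes to 1.14 to 2.44 CPM, with CD3E at 0 in every library. NFE2L2 reads, which come from the endogenous gene and the transgene together, were 3615 to 3808 normalized counts in GFP with Cyss and 6540 to 6880 in NRF2 with Cyss. Without Cyss they were 4461 to 4614 in GFP cells and 7336 to 8323 in NRF2 cells, so every NRF2 library was above every GFP library. The 3 libraries of NRF2 without Cyss were the least alike of any group, and the chi-square of a pair divided by its degrees of freedom was 5.08 to 11.7, against 2.11 to 6.46 within the other groups. Its replicate 1 also had 7.84% of reads outside annotated exons, against 5.82% to 6.69% in the other 11 libraries. The comparisons with NRF2 without Cyss rest on this group.

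All 9 enzymes were expressed in Hs 578T cells. Compared per length as RPKM over all annotated exonic bases, NQO1 was the highest in GFP with Cyss at 165 ± 2.88 (SD, n = 3). GSTP1 followed at 113 ± 9.41 and UGDH at 85.8 ± 4.48. CBR1 stood at 32.4 ± 0.826 RPKM. MGST1 (19.8 ± 0.331) and EPHX1 (19.1 ± 0.509) differed by less than the sum of their SDs, and CBR3 was next at 17.6 ± 0.688. MGST3 had 9.86 ± 0.477 and PIR, the lowest, 3.70 ± 0.051 RPKM. The middle of this order depends on the gene model: with the longest transcript as length, MGST1 moved to the fourth place at 68.5 RPKM and MGST3 reached 25.6, beside 26.4 for EPHX1. Counts were made without strand, and 71.1% of the exonic bases of CBR3 are shared with CBR3-AS1 on the other strand. With the study's HTSeq setting, a read wholly on bases shared by listed genes is ambiguous and counted for neither. CBR3-AS1 had 21.5 to 44.6 normalized counts against 363 to 641 for CBR3, which does not measure the reads lost. The RPKM of CBR3 divides by all its exonic bases, so it may be too low and its place in the order is uncertain. NQO1 shares 19.4% of its exonic bases with another gene model, CBR1 18.9% and UGDH 12.7%. The partner of UGDH, UGDH-AS1, is among the genes counted, while the models that overlap NQO1 and CBR1 are not among them by name.

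**Figure D1:**
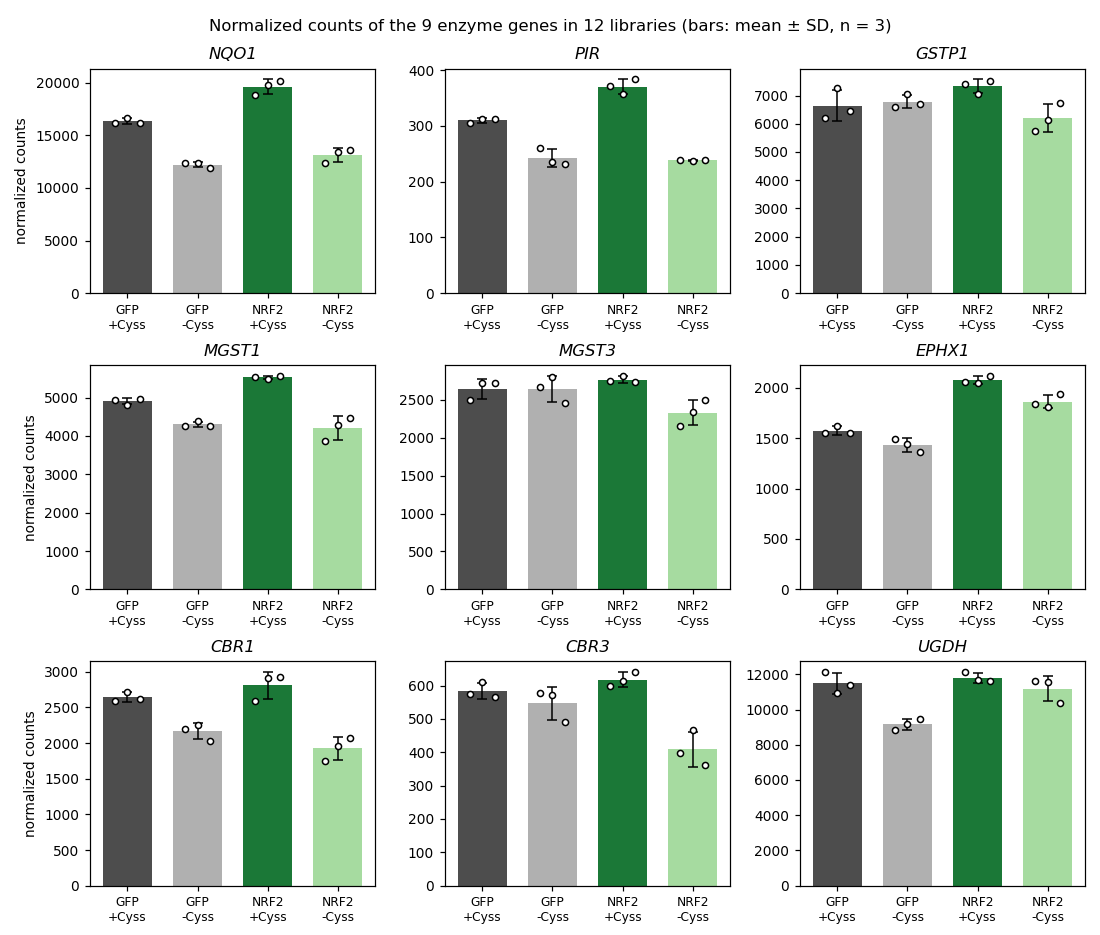
Normalized counts of each enzyme gene (y axis, starting at 0) in the 4 groups; bars are means, error bars SD, and open points the 3 libraries of a group. Every gene had its highest mean in NRF2 with Cyss. In NQO1, PIR, MGST1 and CBR1 both groups without Cyss lay below every library of GFP with Cyss. CBR3 was lowest in NRF2 without Cyss, and UGDH was low in GFP without Cyss alone. EPHX1 was higher with the NRF2 transgene in both media, and its mean was lower without Cyss in both kinds of cell.

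The first comparison asked how the enzymes respond when control cells lose Cyss. In GFP cells NQO1 fell by 25.2%, PIR fell by 21.7% and UGDH fell by 20.5%, and these 3 were differentially expressed genes (DEGs). CBR1 and MGST1 fell by less, and the other 4 did not pass the test. A DEG here has an adjusted p below 0.1 and a log2FC beyond 0.32 in either direction, and "passed the test" refers to the adjusted p alone. By this rule 0 of 9 members were DEGs upward (1.57% of 17431 genes tested) and 3 of 9 were DEGs downward (0.534% of genes). With the adjusted p alone 0 members rose (3.12% of genes) and 5 fell (2.80% of genes). DESeq2 also found 0 upward, as did edgeR at an unadjusted p below 0.05. In bulk RNA, fewer cells of a kind and less RNA per cell cannot be told apart.

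NQO1 had 16142, 16660 and 16194 normalized counts in the 3 libraries of GFP with Cyss and 12356, 12406 and 11903 in GFP without Cyss. The groups did not overlap, and the log2FC was -0.42 (SE 0.0344, adjusted p = 5.89e-06, edgeR quasi-likelihood test with Benjamini-Hochberg adjustment). PIR, measured at a far lower level, had 305, 312 and 313 counts with Cyss and 261, 235 and 232 without. Its log2FC was -0.35 (SE 0.0738, adjusted p = 0.0191). This call was lost without GFP without Cyss replicate 2 (adjusted p = 0.105) or replicate 3 (log2FC -0.319). UGDH had 12142, 10952 and 11401 counts with Cyss and 8850, 9156 and 9447 without, again with no overlap. Its log2FC of -0.33 (SE 0.044, adjusted p = 0.000659) lay close to the fold threshold and moved to -0.29 without GFP with Cyss replicate 1 and to -0.31 without GFP without Cyss replicate 1.

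The carbonyl reductases parted in GFP cells. CBR1 went from 2588, 2719 and 2624 counts to 2204, 2250 and 2035, a log2FC of -0.29 (SE 0.046, adjusted p = 0.0028) that passed the test below the fold threshold, and it became a DEG at -0.321 without GFP without Cyss replicate 2. CBR3 had 576, 610 and 566 counts with Cyss and 576, 573 and 490 without, which overlap, and its log2FC of -0.10 (SE 0.0698, adjusted p = 0.494) did not pass. Among the transferases MGST1 had 4949, 4814 and 4962 counts with Cyss and fell to 4262, 4386 and 4262 without (log2FC -0.19, SE 0.0366, adjusted p = 0.0112). GSTP1 (log2FC 0.03, SE 0.0532) and MGST3 (log2FC -0.0033, SE 0.0524) did not pass, and their groups overlapped. EPHX1 had 1548 to 1622 counts with Cyss and 1357 to 1491 without, with a log2FC of -0.14 (SE 0.0483) and an adjusted p of 0.144. The median log2FC of the 9 genes was -0.19, against 0.00153 over all genes tested.

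The effect of exogenous NRF2 in complete medium was compared next. With Cyss, EPHX1 rose by 31.8% and was the 1 DEG of the 9, NQO1 and PIR rose by 20.3% and 19.6%, MGST1 rose by 12.9%, and the remaining 5 did not pass the test. Thus 1 of 9 was a DEG upward (1.41% of 17420 genes tested) and 0 were DEGs downward (0.218%). Over the adjusted p alone 4 rose (4.36% of genes) and 0 fell (2.31%), and 0 fell by DESeq2 or at an unadjusted p below 0.05.

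EPHX1 had 2052, 2046 and 2120 normalized counts in NRF2 with Cyss, all above the 1552, 1622 and 1548 counts of GFP with Cyss. The log2FC was 0.40 (SE 0.0425, adjusted p = 1.62e-05). NQO1 had 18855, 19832 and 20210 counts in NRF2 with Cyss, also above every GFP library (log2FC 0.27, SE 0.0356, adjusted p = 0.000254). PIR had 371, 357 and 384 counts (log2FC 0.26, SE 0.0683, adjusted p = 0.0457), and MGST1 5534, 5490 and 5575 (log2FC 0.17, SE 0.035, adjusted p = 0.00822). For these genes every library of NRF2 with Cyss exceeded every library of GFP with Cyss. The same held for MGST3 (2732 to 2819 against 2496 to 2719 counts), which did not pass the test. How many of all genes lacked overlap was not computed, so the lack of overlap is description only. GSTP1 had 7061 to 7530 counts, which overlapped the 6206 to 7262 of GFP with Cyss, and its log2FC was 0.14 (SE 0.0498, adjusted p = 0.123). MGST3, CBR1, CBR3 and UGDH had log2FC of 0.07, 0.09, 0.08 and 0.04 with adjusted p from 0.32 to 0.613. The set as a whole had a median log2FC of 0.14 (all genes -0.00173).

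**Figure D2:**
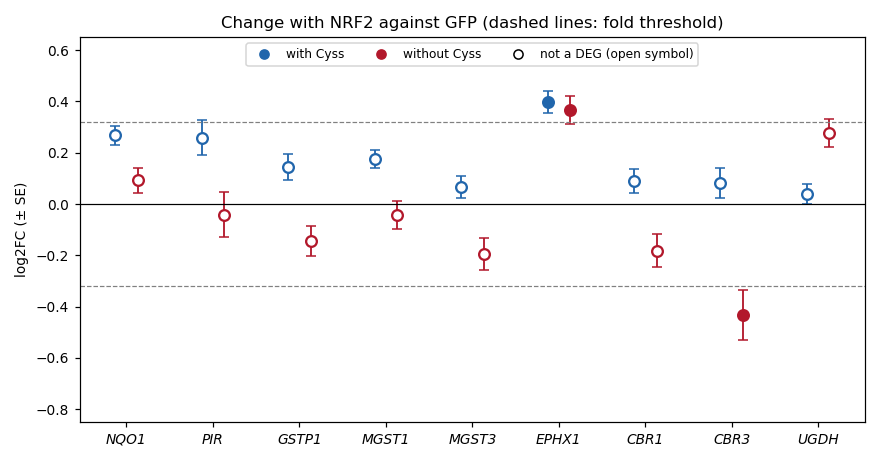
log2FC ± SE (y axis) of NRF2 against GFP cells for each enzyme gene with Cyss (blue) and without Cyss (red); filled symbols are DEGs and dashed lines the fold threshold of 0.32. EPHX1 was above the threshold in both media, and CBR3 was below it without Cyss.

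NRF2 cells were then deprived of Cyss. There 8 of the 9 enzymes fell, 5 of them as DEGs, and UGDH was the member that did not pass. Upward DEGs were 0 (6.81% of 17263 genes tested) and downward DEGs were NQO1, PIR, MGST1, CBR1 and CBR3 (5.14% of genes). By the adjusted p alone 0 rose (15.3% of genes) and 8 fell (13.8%), and 0 rose by DESeq2 or at an unadjusted p below 0.05. More of the whole transcriptome moved in this comparison than in GFP cells, as these shares show.

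PIR had the lowest log2FC of the 9 and went from 371, 357 and 384 normalized counts with Cyss to 238, 237 and 239 without (log2FC -0.64, SE 0.0765, adjusted p = 2.5e-05). CBR3 had 599, 614 and 641 counts with Cyss and 396, 467 and 363 without (log2FC -0.60, SE 0.0846, adjusted p = 0.00012). NQO1 ended at 12391, 13440 and 13599 counts (log2FC -0.58, SE 0.0477, adjusted p = 5.56e-07). In these 3 genes, as in CBR1 and MGST1, the log2FC was large compared with its SE. CBR1 had 2589, 2912 and 2925 counts with Cyss and 1746, 1954 and 2072 without (log2FC -0.55, SE 0.0645, adjusted p = 2.1e-05). MGST1 ended at 3866, 4297 and 4472 counts (log2FC -0.40, SE 0.0525, adjusted p = 6.82e-05). GSTP1 (log2FC -0.24, adjusted p = 0.00579), MGST3 (log2FC -0.25, adjusted p = 0.0038) and EPHX1 (log2FC -0.16, adjusted p = 0.0305) fell below the fold threshold. UGDH kept 11622, 11573 and 10357 counts beside 12130, 11654 and 11637 with Cyss, a log2FC of -0.08 (SE 0.0509, adjusted p = 0.293). Its groups did not overlap, although it did not pass. The median log2FC of the set was -0.40 (all genes -0.0116).

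**Figure D3:**
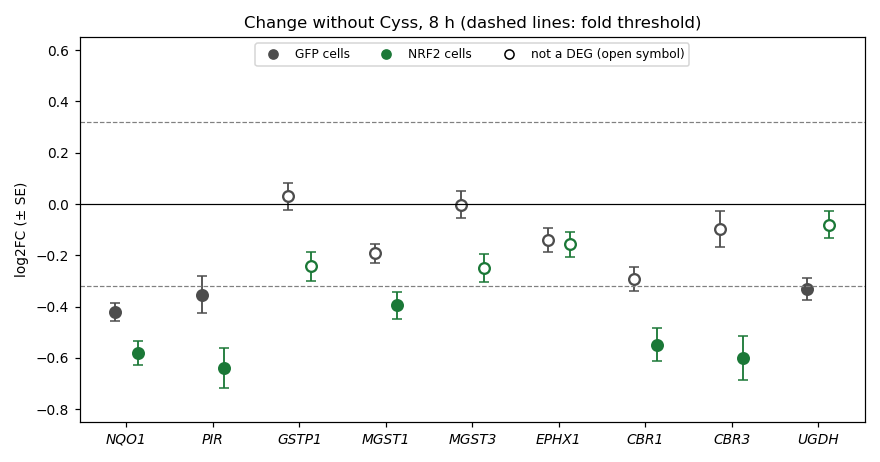
log2FC ± SE (y axis) after Cyss removal for each enzyme gene in GFP cells (grey) and NRF2 cells (green); filled symbols are DEGs and dashed lines the fold threshold of 0.32. All points except UGDH lay lower in NRF2 cells, with EPHX1 nearly level and CBR3 the farthest apart.

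Whether the response to Cyss depletion differed between NRF2 and GFP cells was tested as an interaction over all 12 libraries. CBR3 lost more in NRF2 cells, by -0.50 on the log2 scale (SE 0.115, adjusted p = 0.0114), and UGDH lost less, by 0.25 (SE 0.0689, adjusted p = 0.0297). These 2 calls held in each of the 19 alternative fits, with adjusted p up to 0.0414 for CBR3 and 0.0865 for UGDH. In all, 1 member had a positive interaction (8.98% of 17653 genes tested) and 7 a negative one (6.14% of genes) at an adjusted p below 0.1. The other 6 negative estimates were -0.27 for GSTP1 (adjusted p = 0.0503), -0.20 for MGST1 (0.0575), -0.25 for MGST3 (0.0593), -0.26 for CBR1 (0.0691), -0.29 for PIR (0.0786) and -0.16 for NQO1 (0.0953). None of these 6 had an adjusted p below 0.05. When 1 library was left out, the number of negative members ranged from 1 to 7, and it was 1 without GFP without Cyss replicate 2 or NRF2 with Cyss replicate 3, 2 without GFP with Cyss replicate 1, 3 without GFP with Cyss replicate 3, GFP without Cyss replicate 1, or NRF2 without Cyss replicate 1 or 2, and 4 without NRF2 with Cyss replicate 2. EPHX1 had an interaction of -0.02 (SE 0.0658, adjusted p = 0.902).

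**Figure D4:**
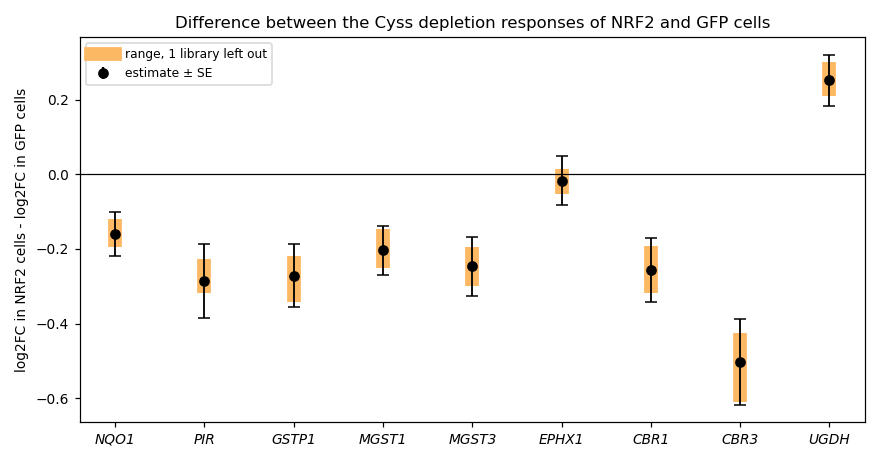
Difference of the log2FC after Cyss removal, NRF2 cells minus GFP cells, for each enzyme gene (y axis, log2 scale); points and bars are the estimate ± SE and orange bars the range when 1 of the 12 libraries was left out. Only CBR3 at -0.50 and UGDH at 0.25 kept their calls in every fit, and EPHX1 was at -0.02.

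Without Cyss, NRF2 cells were compared with GFP cells under the same depletion. EPHX1 was higher in NRF2 cells and CBR3 lower, UGDH was higher below the fold threshold, and MGST3 and CBR1 were slightly lower. The DEGs were 1 upward (5.98% of 17289 genes tested) and 1 downward (4.10%). By the adjusted p alone 2 were higher (14.0% of genes) and 3 lower (14.8%). This comparison shares libraries with both Cyss depletion comparisons, and so does that of NRF2 with Cyss, so the values stand side by side and are not independent.

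EPHX1 had 1834, 1813 and 1936 normalized counts in NRF2 without Cyss and 1491, 1442 and 1357 in GFP without Cyss. Its log2FC was 0.37 (SE 0.0535, adjusted p = 0.000995), beside 0.40 with Cyss. CBR3, with the 396, 467 and 363 counts given above for NRF2 cells, lay under all 3 GFP libraries (log2FC -0.43, SE 0.0964, adjusted p = 0.00918). UGDH lay above all 3 GFP libraries (log2FC 0.28, SE 0.0543, adjusted p = 0.00497) and became a DEG at 0.33 without NRF2 without Cyss replicate 3. MGST3 had a log2FC of -0.19 (adjusted p = 0.0455) and CBR1 of -0.18 (adjusted p = 0.065). Leaving out GFP without Cyss replicate 1 or 2, or NRF2 without Cyss replicate 1 or 2, left 1 member that was lower by the adjusted p. NQO1 (log2FC 0.09, SE 0.0479), PIR (-0.04, SE 0.0864), MGST1 (-0.04, SE 0.0552) and GSTP1 (-0.14, SE 0.0587) did not pass, with adjusted p from 0.105 to 0.777.

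The last comparison set depleted NRF2 cells against control cells in complete medium. CBR3, CBR1, PIR and NQO1 were lower in NRF2 without Cyss than in GFP with Cyss and were DEGs, EPHX1 was higher, and GSTP1 and UGDH did not pass the test. DEGs numbered 0 upward (7.21% of 17564 genes tested) and 4 downward (4.85%), and by the adjusted p alone 1 was higher (14.3%) and 6 lower (14.7%). In percent of the GFP with Cyss mean, NRF2 without Cyss held 70 ± 9.12 for CBR3, 72.8 ± 6.23 for CBR1, 76.9 ± 0.346 for PIR and 80.5 ± 4.02 for NQO1 (SD, n = 3). The log2FC were -0.53 (SE 0.0864) for CBR3, -0.47 (SE 0.0609) for CBR1, -0.39 (SE 0.0719) for PIR and -0.33 (SE 0.0476) for NQO1. NQO1 fell out of the DEGs without GFP with Cyss replicate 2 (log2FC -0.31) or NRF2 without Cyss replicate 1 (log2FC -0.28). MGST1 (log2FC -0.23, adjusted p = 0.0093) and MGST3 (log2FC -0.20, adjusted p = 0.034) were lower by less, and EPHX1 was higher at 0.23 (adjusted p = 0.00703). UGDH stood at 97.3 ± 6.23 percent of its GFP with Cyss mean and GSTP1 at 93.4 ± 7.58.

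Related enzymes gave the setting for these values. Of 125 other genes for conjugation, for quinone, carbonyl, epoxide and aldehyde metabolism and for phase I oxidation (29 cytochromes P450, flavin monooxygenases, carboxylesterases and their partners), 66 to 68 were expressed enough to be tested. In GFP cells without Cyss 1 of 66 rose and 1 fell as DEGs, beside 1.57% and 0.534% of all genes: NNMT, which methylates nicotinamide, rose (log2FC 0.58) and ALDH3A2, a fatty aldehyde dehydrogenase, fell (log2FC -0.33). In NRF2 cells without Cyss 3 of 67 rose and 8 fell, beside 6.81% and 5.14% of all genes, and those that fell included the transferase GSTA4 (log2FC -0.38), the quinone reductase CRYZ (log2FC -0.36) and the carbonyl reductase DCXR (log2FC -0.35). Of 13 other glutathione transferases tested there, 2 rose and 8 fell by the adjusted p (15.3% and 13.8% of all genes), with a median log2FC of -0.26. Of 14 other quinone and carbonyl reductases 5 passed the test, each of them lower, with a median of -0.13. With NRF2 and Cyss 6 of 68 other enzymes were DEGs, each of them higher (1.41% of all genes were higher). Of these only the prostaglandin reductase PTGR1 (log2FC 0.40) averaged at least 50 normalized counts. CES1 (0.246 counts in GFP with Cyss, 12.2 in NRF2 with Cyss) and CYP4F11 (2.81 and 19.3) reached the filter of 10 counts only through NRF2 cells, so this share is description only. Under NRF2 without Cyss 6 of 66 were higher and 4 lower, beside 5.98% and 4.10% of all genes. Here too CES1 (2.08 counts in GFP without Cyss, 11.4 in NRF2 without Cyss) and CYP4F11 (0.743 and 12.8) reached the filter only through NRF2 cells. The share of higher genes is therefore description only as well. Among the higher ones only ALDH1A3 (log2FC 0.54) averaged at least 50 counts. The lower ones included UGP2, which makes the UDP-glucose that UGDH oxidizes (log2FC -0.35, against 0.28 for UGDH).

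Other NRF2 targets, a list of 24 genes that holds glutathione, thioredoxin and NADPH genes, was counted in the same way. The list includes genes that the study named from these same libraries, among them TXNRD1, AKR1B10 and OSGIN1. Its counts beside the shares of all genes are therefore description only. With Cyss 12 of 24 were DEGs in NRF2 cells, each of them higher (1.41% of all genes were), with a median log2FC of 0.32. The aldo-keto reductases AKR1C2, AKR1B10 and AKR1C1 had log2FC of 2.19, 1.44 and 1.33. Without Cyss 12 of 24 were DEGs, again each of them higher (5.98% of all genes), with the same 3 aldo-keto reductases at 1.46, 0.89 and 0.87. The AKR1C genes are close copies of one another, and reads may be shared between them. Under Cyss depletion 1 rose and 7 fell in GFP cells (1.57% and 0.534% of all genes), and the 11 DEGs of NRF2 cells fell (5.14% of all genes). Among 7 genes listed as NRF2 regulators, which include NFE2L2 itself, 1 was a DEG upward in GFP cells without Cyss (1.57% of all genes). It was the small MAF gene MAFF (log2FC 0.38). In NRF2 cells without Cyss 3 of the 7 were DEGs upward (6.81% of all genes). These were MAFF (log2FC 1.06), BACH1, a repressor at the same elements (0.54), and the small MAF gene MAFK (0.51).

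Across the 12 libraries the enzymes fell into several patterns, given here as a description since all points share the same 4 groups. NQO1 and PIR had a Pearson r of 0.967 on log2(CPM + 1), and NQO1 and MGST1 0.956. CBR1 was near MGST1 at 0.923, and CBR3 was nearest CBR1 at 0.832. EPHX1 and UGDH were least like MGST3 among the 3 transferases, with r of 0.0369 between EPHX1 and MGST3 and -0.14 between UGDH and MGST3. With NQO1, EPHX1 had an r of 0.65 and UGDH of 0.69. Outside the set and among 11300 genes with a mean of at least 5 CPM, TRIM16L was the gene most like both NQO1 (r = 0.98) and PIR (r = 0.991), and the transketolase gene TKT was among the first 3 for both. EPHX1 was most like AKR1B1P2, F2RL2 and AKR1C1 (r = 0.989, 0.974 and 0.973), GSTP1 most like C12orf57 (0.977), MGST1 like GLA (0.97), MGST3 like ADH5P4 (0.952), CBR1 like MAP3K14 (0.967) and UGDH like EFCAB14 (0.97).

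**Figure D5:**
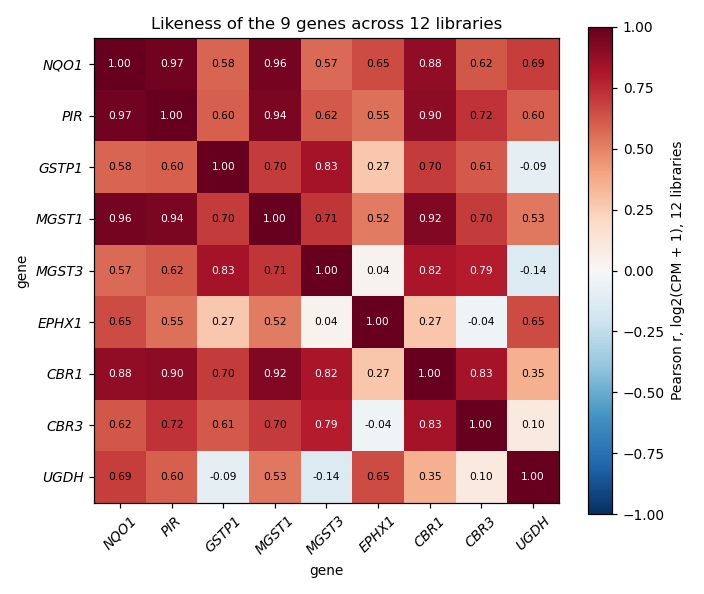
Pearson r of log2(CPM + 1) between each pair of the 9 enzyme genes over the 12 libraries (colour scale from -1 to 1). NQO1, PIR, MGST1 and CBR1 lay between 0.883 and 0.967 with each other. With these genes EPHX1 had r of 0.274 to 0.65 and UGDH of 0.353 to 0.69. With MGST3, EPHX1 and UGDH had r of 0.0369 and -0.14.

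The ratio of the carbonyl reductases was read within each library. CBR1 exceeded CBR3 by 2.18 ± 0.0297 on the log2 scale of CPM in GFP with Cyss and by 1.99 ± 0.0604 in GFP without Cyss, and these libraries did not overlap. In NRF2 cells the differences were 2.18 ± 0.068 with Cyss and 2.24 ± 0.24 without (SD, n = 3), where the libraries ranged from 2.07 to 2.51. The difference of MGST1 over MGST3 was 0.89 ± 0.0843 in GFP with Cyss, 0.71 ± 0.078 in GFP without Cyss, 1.001 ± 0.0348 in NRF2 with Cyss and 0.85 ± 0.0218 in NRF2 without Cyss.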

How the data were processed

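Hs 578T cells were profiled by RNA-seq in 12 libraries (TruSeq RNA, single end), 3 in each of 4 groups. The authors aligned the reads to hg19 with TopHat 2.1.0 and Bowtie, and counted them without strand with HTSeq 0.11.2; the deposited values are raw counts per gene symbol. The 5 HTSeq counter rows, which held 15.9% to 17.1% of reads, and 523 rRNA genes were left out, which left 55242 genes. Genes were tested where 1 of the groups averaged 10 or more normalized counts, and library sizes and TMM factors were taken from the genes that passed. Each comparison was fitted on its 6 libraries with the quasi-likelihood test of edgeR 4.0.16 (R 4.3.3) and Benjamini-Hochberg adjustment over all genes tested; the interaction used all 12. The thresholds, an adjusted p of 0.1 and a log2FC of 0.32, were those of the study's figure legends; its methods name an adjusted p of 0.05, which was run as an alternative. The normalized counts printed are TMM-scaled over all 12 libraries. The scripts were tested on simulated counts.

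Members and gene lists were chosen with earlier results of these data known. All 9 members were named in every comparison. From other lists at most the 3 largest changes among DEGs with at least 50 normalized counts were named, and the 3 genes most like each member were found by Pearson r (that of CBR3 is not reported here). Alternatives were DESeq2 1.42.0, other scaling, no filter, an adjusted p of 0.05, a replicate block, all 12 libraries in 1 fit, leaving out each library, and, added after seeing the data, TMM before the filter. Same-numbered replicates were not paired in the main fits, because the study's methods name no pairing. The correlation of their deviations was -0.187 to 0.236, with a median of 0.0783 and above 0.1 in 8 of 18 pairs. For libraries with other numbers the median was -0.0264, and 6 of 36 pairs were above 0.1. Whether same-numbered libraries share an effect was not tested. With 3 against 3 libraries an exact permutation test cannot go below p = 0.1, so none was run.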

Additional observations from a re-analysis of the deposited data

Results flagged for a closer look

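The interaction test found that the response to Cyss depletion differed between NRF2 and GFP cells (adjusted p below 0.1) for 8 of the 9 enzymes. Of these 1 had a positive and 7 a negative difference, beside 8.98% and 6.14% of all genes tested. Negative differences were also found for 16 of 68 related enzymes (1 positive) and 9 of 24 other NRF2 targets (2 positive). The differences of log2FC, NRF2 cells minus GFP cells, were 0.25 for UGDH, -0.50 for CBR3, -0.29 for PIR, -0.27 for GSTP1, -0.26 for CBR1, -0.25 for MGST3, -0.20 for MGST1 and -0.16 for NQO1. At an adjusted p below 0.05 only CBR3 and UGDH were called. The number of negative members rests on single libraries of several groups. It was 1 without GFP without Cyss replicate 2 or NRF2 with Cyss replicate 3. Without NRF2 without Cyss replicate 1, the library with the largest share of reads outside exons, it was 3, and the calls of PIR (adjusted p = 0.101), MGST3 (0.115), CBR1 (0.137) and NQO1 (0.16) were lost.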

How the results depend on the processing

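No log2FC of a member reversed among those called, in any alternative. The number of genes called with NRF2 and Cyss was 105 by DESeq2 and 160 to 308 when 1 library was left out, against 283 in the reported fit. At an adjusted p of 0.05 the interaction called 1591 genes against 2669, and 1 member with a negative difference against 7; without 1 library these were 1396 to 3625 genes and 1 to 7 members. Under NRF2 without Cyss the members lower by the adjusted p were 1 to 4 and the upward DEGs 1 to 2 without 1 library. The replicate block, which pairs libraries by a shared number only, gave 387, 2123, 313 and 1904 genes called in the Cyss depletion comparisons of GFP and NRF2 cells and the NRF2 comparisons with and without Cyss, and 3175 interaction genes; it changed no DEG or interaction call of a member. TMM before the filter (chosen after seeing the data) took NQO1 out of the interaction calls (adjusted p = 0.127). DESeq2 size factors took NQO1 out as well (0.104), no filter took out NQO1 (0.133) and PIR (0.244), and the DESeq2 test took out PIR (0.161). Fitting all 12 libraries at once took NQO1 out of the DEGs of NRF2 without Cyss against GFP with Cyss (log2FC -0.313). The cause of these changes was not tested. Per-length levels depend on the transcript taken as length. With 3 libraries a group, small differences could not be told from the spread.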
